A study of Homo sapiens with 12 samples.

Results

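The genes described here are the 39 human nuclear receptor genes other than those of the retinoic acid and retinoid X receptors, out of 19970 protein-coding genes on the chromosomes of the peak lists. They were taken from a fixed list of symbols and matched to the GENCODE annotation of hg38 (GRCh38), where every symbol was found. H3K4me2, a mark of histone H3 dimethylated at lysine 4, was mapped by paired-end ChIP-seq in U-937 cells, a human myeloid leukaemia line with monocytic features. The cells were treated for 24 hours with vehicle (DMSO), with all-trans retinoic acid (ATRA) at 0.1 µM, with Corin at 0.1 µM, or with ATRA and Corin at 0.1 µM each. Each treatment had 2 H3K4me2 libraries and 1 input library, and all libraries came from this 1 line. The labels name no genetic change in any group. Corin is a synthetic compound with a pair of targets in the CoREST corepressor complex, its histone deacetylases and the demethylase LSD1.

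Nuclear receptors are transcription factors that carry a zinc-finger DNA-binding domain and, in most members, a pocket for a small lipophilic ligand. Many bind DNA as pairs at repeats of the hexamer AGGTCA, and several, among them the thyroid hormone, vitamin D, PPAR and liver X receptors, do so together with a retinoid X receptor. Without ligand some of them recruit corepressors with histone deacetylases, and with ligand they recruit coactivators. In monocytes and macrophages the PPAR and liver X receptors are known for lipid handling, the vitamin D receptor for myeloid differentiation, the glucocorticoid receptor for anti-inflammatory responses and the NR4A group for rapid induction. LSD1 removes methyl groups from lysine 4 of histone H3, and H3K4me2 is found around active and poised promoters and at enhancers.

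Each treatment is represented by 1 peak list for its libraries together, labelled as an optimal reproducibility overlap set, which makes 4 lists in all. The spread between replicates is therefore unknown, no p-value is given, and differences are described between lists only. The lists held 65172 to 83969 peaks and covered 73.4 Mb (DMSO) to 108.5 Mb (ATRA+Corin), so values for the receptors are set beside the same values for all protein-coding genes. As a check of the cell label, the start sites of the myeloid genes SPI1, CSF1R, ELANE and ITGB2 lay under a peak in all 4 lists. Those of CD33, LYZ and CEBPA did so in every list but ATRA+Corin, and MPO had no peak within 1 kb in any list. CD3E, CD3D, PAX5, MS4A1, GATA1, HBB, ALB and EPCAM, markers of lymphoid, erythroid, liver or epithelial cells, had no peak within 1 kb of the start in any list.

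Promoter sequences of 3 receptors are shown first, 1 from each of the 3 classes of start-site cover described below. Each is the 250 bases upstream of the start site, read 5′ to 3′ on the gene's strand from hg38, with CpG dinucleotides in capitals. The promoter of PPARD (chr6:35342308-35342557, plus strand) held 23 CpG, and its start site was covered in all lists. The promoter of NR2F2 (chr15:96330450-96330699, plus strand) held 40, and its start site was covered after DMSO only. The promoter of RORA (chr15:61229303-61229552, minus strand) held 19, and its start site was covered in no list.
PPARD promoter: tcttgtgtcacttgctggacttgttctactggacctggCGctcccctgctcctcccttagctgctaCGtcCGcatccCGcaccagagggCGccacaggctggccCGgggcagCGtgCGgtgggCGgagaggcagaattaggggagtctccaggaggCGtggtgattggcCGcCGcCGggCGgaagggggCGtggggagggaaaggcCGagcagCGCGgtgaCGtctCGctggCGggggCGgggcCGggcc
NR2F2 promoter: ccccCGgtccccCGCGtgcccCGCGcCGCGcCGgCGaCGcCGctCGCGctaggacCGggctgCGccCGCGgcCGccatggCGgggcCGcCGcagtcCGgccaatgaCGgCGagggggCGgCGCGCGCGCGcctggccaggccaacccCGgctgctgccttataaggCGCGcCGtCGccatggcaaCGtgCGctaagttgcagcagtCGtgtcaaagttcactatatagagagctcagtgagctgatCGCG
RORA promoter: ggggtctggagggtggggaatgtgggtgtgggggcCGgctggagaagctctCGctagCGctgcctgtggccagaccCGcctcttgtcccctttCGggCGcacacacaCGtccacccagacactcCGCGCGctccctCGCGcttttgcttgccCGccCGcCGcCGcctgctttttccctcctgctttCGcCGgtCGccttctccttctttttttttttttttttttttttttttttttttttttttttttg

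Summits of 4 regions are shown as examples of marked sequence that was absent after DMSO and present in other lists. Each is 200 bases around the strongest deposited summit of the region, on the plus strand of hg38, with AGGTCA or its complement TGACCT in capitals, and none overlaps an annotated exon. The PPARD intron summit (chr6:35348653-35348852) was present after Corin and ATRA+Corin. The summit in NR1D2 (chr3:23950520-23950719) was present in all 3 drug lists but not after DMSO. The summit in NR3C1 (chr5:143418592-143418791) was present after ATRA and ATRA+Corin, and the summit in RORA (chr15:60916176-60916375) after Corin and ATRA+Corin.
PPARD intron: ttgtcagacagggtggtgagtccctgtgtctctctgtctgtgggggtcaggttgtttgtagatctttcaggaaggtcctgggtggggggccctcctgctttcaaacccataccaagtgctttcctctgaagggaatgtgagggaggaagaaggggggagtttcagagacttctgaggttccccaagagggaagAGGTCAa
NR1D2 intron: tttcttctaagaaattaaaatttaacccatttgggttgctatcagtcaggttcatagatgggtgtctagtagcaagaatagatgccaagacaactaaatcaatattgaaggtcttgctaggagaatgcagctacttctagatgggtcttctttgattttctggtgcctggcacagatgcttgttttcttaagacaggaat
NR3C1 intron: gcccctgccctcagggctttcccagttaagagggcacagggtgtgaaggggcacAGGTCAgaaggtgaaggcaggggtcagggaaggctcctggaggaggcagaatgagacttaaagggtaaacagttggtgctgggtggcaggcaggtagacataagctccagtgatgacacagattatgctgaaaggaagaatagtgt
RORA intron: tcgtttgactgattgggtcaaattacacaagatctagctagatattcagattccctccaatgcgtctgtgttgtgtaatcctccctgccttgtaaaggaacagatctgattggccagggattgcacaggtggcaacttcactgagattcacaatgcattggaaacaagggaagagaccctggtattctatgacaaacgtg
Cut into consecutive words of 20 bases, the RORA and NR1D2 summits held 10 of 10 words that occur once in hg38, and the PPARD and NR3C1 summits held 9 of 10.

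The first question was which receptor genes carried the mark at their start sites, and whether the drugs changed this. The canonical start base lay under a peak for 19 of the 39 genes after DMSO, where 47.3% of all protein-coding genes had a covered start. It was covered for 20 after ATRA (48.1% of all genes), for 18 after Corin (38.0%) and for 17 after ATRA+Corin (38.0%). A peak within 1 kb of the start was found for 23 of the 39 genes in every list, against 61.3%, 61.5%, 61.5% and 62.3% of all genes in the DMSO, ATRA, Corin and ATRA+Corin lists. The share of all genes with a covered start was lower in the lists with Corin, and the receptors differed from the DMSO count by 1 or 2 genes.

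The 39 genes fell into 3 classes of cover. In every list the start was covered for 16 genes, a state shared by 30.8% of all genes. These were THRA, VDR, PPARD, PPARG, NR1H3, NR1D1, NR1D2, RORB, NR3C2, NR2C1, NR2F1, NR2F6, NR4A1, NR4A2, NR4A3 and NR6A1. In no list was it covered for 18 genes (46.4% of all genes): THRB, NR1H4, NR1I2, NR1I3, PPARA, RORA, ESR1, ESR2, PGR, ESRRB, ESRRG, HNF4A, HNF4G, NR2E1, NR2E3, NR5A1, NR5A2 and NR0B2. Of these, PPARA and ESR2 had peaks within 1 kb in all lists, and the other 16 had none in any list, against 36.9% of all genes. PGR and HNF4G had no peak in the gene body or within 50 kb in any list, as did 9.72% of all genes. Cover differed between lists for the remaining 5 genes, NR1H2, NR3C1, ESRRA, NR2C2 and NR2F2 (22.8% of all genes).

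**Figure D1:**
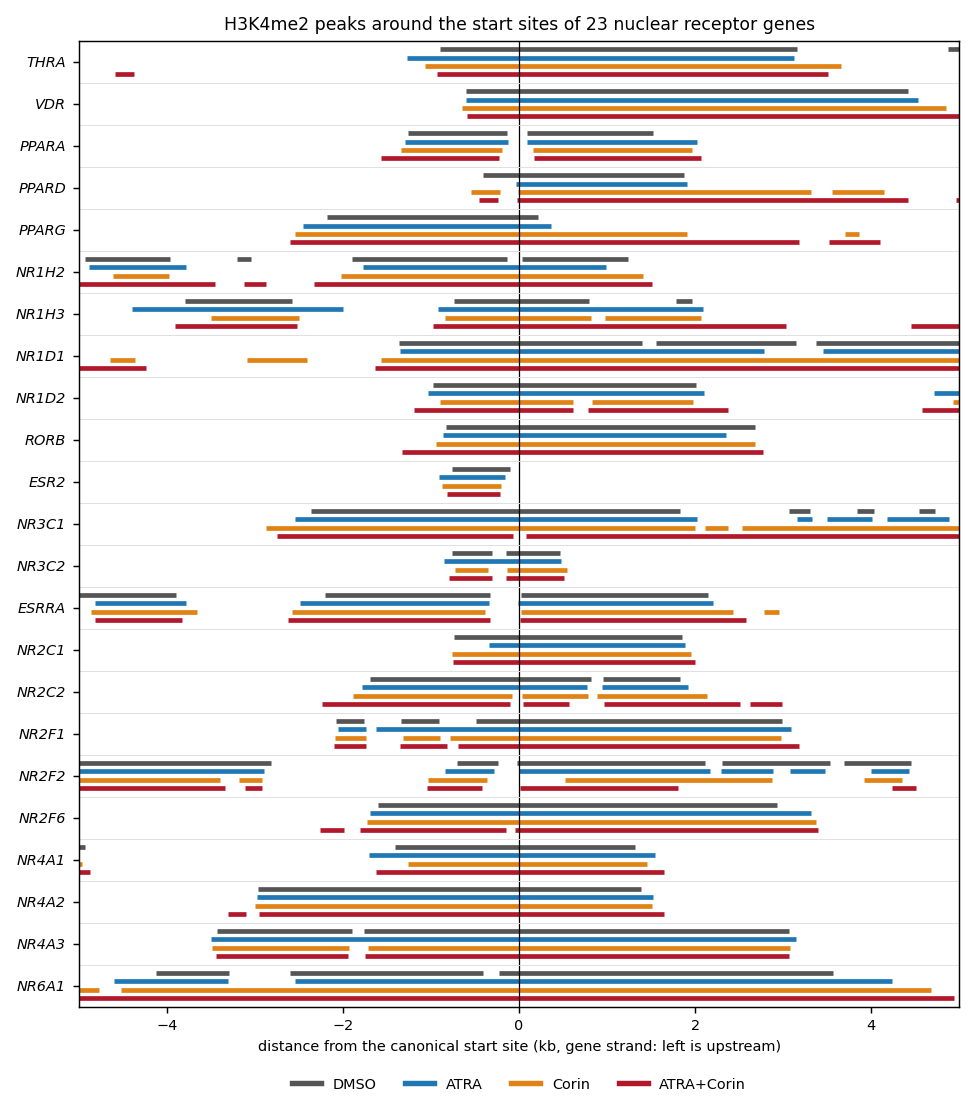
H3K4me2 peaks from 5 kb upstream to 5 kb downstream of the start site for the 23 receptor genes with a peak within 1 kb. Bars are peaks, colours are the 4 treatments, the x axis is distance from the canonical start in kb on the gene's strand. The start site of PPARA lies in a short gap between peaks in every list and that of ESRRA in 3 lists, ESR2 has a peak on the upstream side alone, and the NR6A1 peak is widest after ATRA+Corin.

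The 5 changes in cover were changes at peak edges or short gaps, as the map of peaks around the start sites shows. NR1H2, which encodes the widely expressed liver X receptor beta (chr19:50329653-50383388, plus strand), had its start at 50376457. After DMSO this base lay in an uncovered stretch of 159 bp. After ATRA, Corin and ATRA+Corin it lay inside peaks of 2760, 3428 and 3844 bp. NR2C2, the testicular receptor 4 gene (chr3:14947583-15053600, plus strand), was inside a peak of 2514 bp after DMSO and 2559 bp after ATRA. It lay in a stretch of 116 bp without a peak after Corin and of 146 bp after ATRA+Corin. For both genes the mark lay on either side of the start in all lists.

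NR3C1, the glucocorticoid receptor gene (chr5:143277931-143435512, minus strand), had its start at 143403686. The peak over it was 4201 bp wide after DMSO, 4560 bp after ATRA and 4879 bp after Corin. After ATRA+Corin a stretch of 153 bp around the start was without a peak, while the marked length on both sides was greater than after DMSO. NR2F2, which encodes the orphan receptor COUP-TFII (chr15:96325938-96340263, plus strand), was covered after DMSO by a peak that began 28 bp upstream of the start. After the drugs the nearest downstream peak began 3 bp (ATRA), 527 bp (Corin) and 7 bp (ATRA+Corin) past it. ESRRA, the oestrogen-related receptor alpha gene (chr11:64305497-64316743, plus strand), was covered after ATRA by a peak that began 7 bp upstream. In the other lists the nearest downstream peak began 24 bp (DMSO), 17 bp (Corin) and 13 bp (ATRA+Corin) past the start. The NR2F2 call for Corin thus rests on a stretch of 889 bp without a peak, and the ATRA and ATRA+Corin calls on a few bases. Among all genes, 4.69% gained and 3.89% lost cover after ATRA, 2.31% and 11.6% after Corin, and 2.68% and 11.9% after ATRA+Corin. Of the receptors, 2 gained and 1 lost after ATRA, 1 gained and 2 lost after Corin, and 1 gained and 3 lost after ATRA+Corin.

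PPARA, which encodes the fatty acid receptor of the liver and of oxidative tissues, had flanking peaks in all lists but a start site in the gap between them. The gap was 225 bp after DMSO, 216 bp after ATRA, 357 bp after Corin and 406 bp after ATRA+Corin, so it was widest in the lists with Corin. ESR2, the oestrogen receptor beta gene, had a peak on the upstream side alone, ending 108 bp before the start after DMSO and 160, 203 and 212 bp before it after ATRA, Corin and ATRA+Corin.

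For the 16 genes covered in every list, the peak over the start had a median width of 3231 bp after DMSO, 3689 bp after ATRA, 4108 bp after Corin and 4267 bp after ATRA+Corin. The medians of the 6151 genes covered in every list were 2551, 2724, 2930 and 3082 bp. Against DMSO, the peak was wider for 13 of 16 receptors after ATRA (65.5% of those genes), 13 after Corin (75.6%) and 13 after ATRA+Corin (77.8%). It reached farther downstream for 14 (60.9%), 14 (78.6%) and 15 (79.2%). After ATRA+Corin it was at least 1.5 times as wide for 5 of the 16, against 22.3%. Those 5 were PPARD, PPARG, NR1H3, NR1D1 and NR6A1, named here after their values were seen.

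NR6A1, an orphan receptor of germ cells and early development, had the largest change of width among these 16. Its peak spanned 3790 bp after DMSO, 6784 bp after ATRA, 9198 bp after Corin and 11762 bp after ATRA+Corin. Part of this was the joining of neighbouring peaks, since the region around the start held 4 peaks that covered 8345 bp after DMSO and 1 peak of 11762 bp after ATRA+Corin. PPARG went from 2399 bp after DMSO to 2811, 4456 and 5782 bp after ATRA, Corin and ATRA+Corin, and its downstream edge moved from 218 bp to 360, 1905 and 3180 bp past the start. NR1H3, the liver X receptor alpha gene, had a peak of 1530 bp after DMSO, 3010 bp after ATRA, 1656 bp after Corin and 4017 bp after ATRA+Corin, with a further peak of 1091 bp after a short gap in the Corin list. The region around the start was covered over 1713, 3010, 2747 and 4017 bp, so it was longer in every drug list than after DMSO. The clock repressor gene NR1D1 had 2764, 4129, 6578 and 6917 bp in the same order. Here too peaks had joined, since the region around its start held 3 peaks covering 6021 bp after DMSO, 2 covering 5755 bp after ATRA and 1 each after Corin and ATRA+Corin. Narrower peaks after ATRA+Corin than after DMSO were found for NR1D2 (1808 and 2985 bp), NR2F6 (3438 and 4532 bp) and NR4A3 (4822 and 4826 bp). For NR1D2 and NR2F6 the peak had been split by a short gap, and for NR4A3 the widths were nearly equal.

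Start-site cover was set beside promoter CpG content, measured from 250 bases before to 50 bases after the start. The ratio of observed to expected CpG had a median of 0.856 for the 16 receptors covered in every list, 1.02 for the 5 covered in some lists and 0.447 for the 18 covered in none. The medians of all genes in these classes were 0.833, 0.880 and 0.541. A ratio of at least 0.6 was found for 13 of 16, 5 of 5 and 6 of 18 receptors, against 82.8%, 89.4% and 46.5% of all genes in the classes. NR1H3 at 0.226 and PPARG at 0.430 had low ratios and covered starts. PPARA at 0.994, THRB at 0.920 and RORA at 0.874 had high ratios and no covered start. The hexamer AGGTCA, on either strand, was found in 3 of the 39 promoters (PPARG, ESR2 and NR5A2), against 11.2% of all promoters, and direct repeats with spacers of 0 to 5 bases in none, against 0.0501%.

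**Figure D2:**
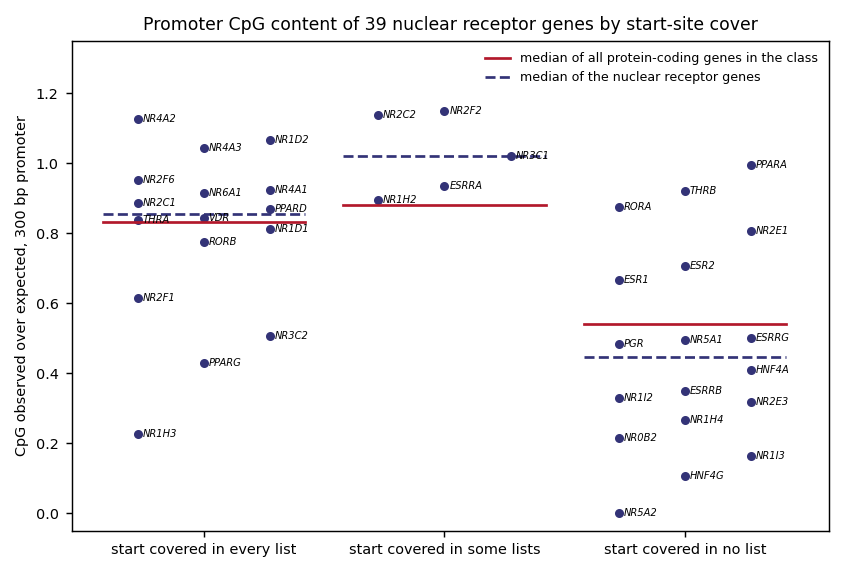
Observed over expected CpG in the 300 bp promoter window (y axis) for the 39 receptor genes, grouped by start-site cover in the 4 lists (x axis). Points are genes, dashed lines the receptor medians and solid lines the medians of all protein-coding genes in the class. The receptors covered in no list have a median of 0.447, with PPARA, THRB and RORA well above it.

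The second question was how much marked sequence lay around the genes. Within 50 kb of the start, the median receptor had 5671 bp under peaks after DMSO, 7007 bp after ATRA, 6674 bp after Corin and 7997 bp after ATRA+Corin. For the 31 receptors with any DMSO cover in the window, the length was 1.13 times the DMSO length at the median after ATRA, 1.19 times after Corin and 1.30 times after ATRA+Corin. The medians of all genes were 1.09, 1.22 and 1.34. The length was greater than after DMSO for 26 of 31 receptors after ATRA (76.6% of all genes), 28 after Corin (89.7%) and 29 after ATRA+Corin (92.6%). It was at least 1.5 times the DMSO length for 1 receptor after ATRA (5.92% of all genes), 6 after Corin (16.6%) and 10 after ATRA+Corin (33.6%). As a set the receptors were close to the background of all genes, and the spread lay between members.

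**Figure D3:**
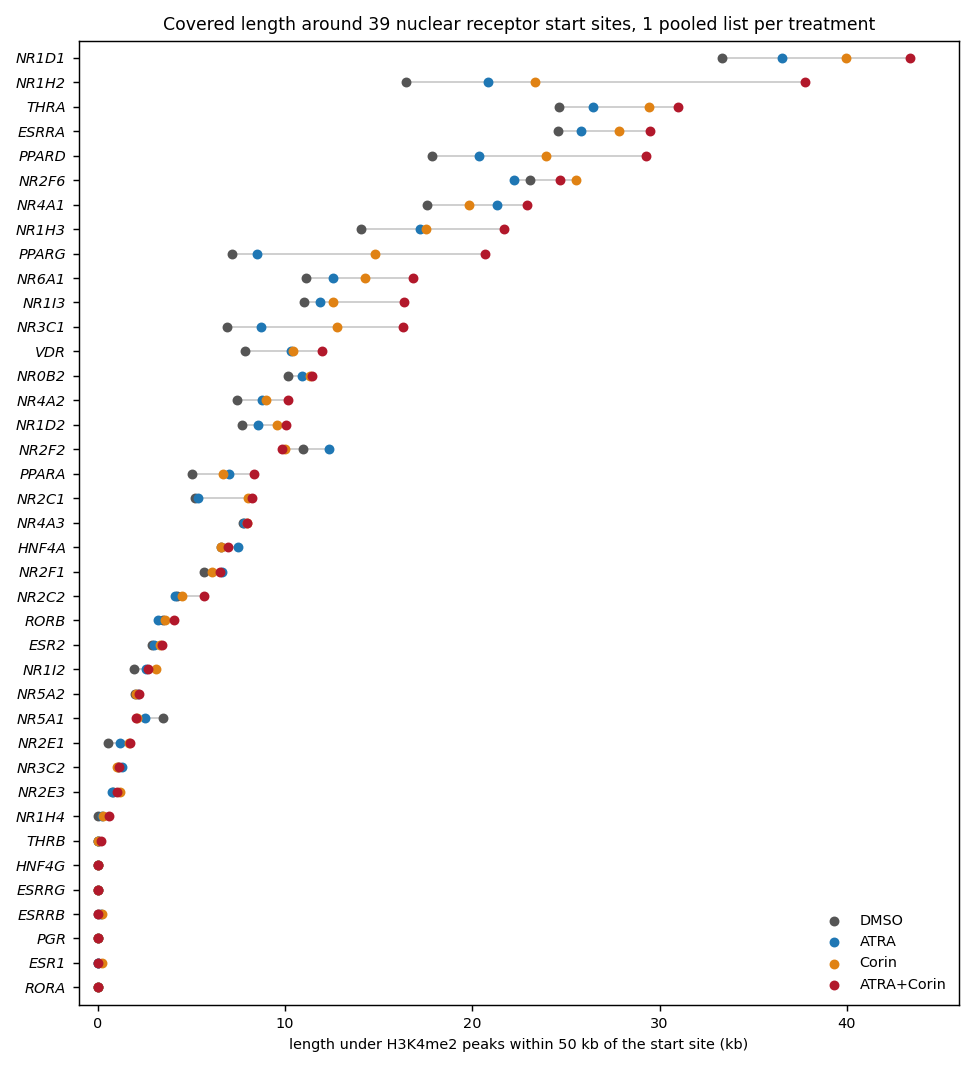
Length under H3K4me2 peaks within 50 kb of the start site (x axis, kb) for each of the 39 receptor genes, with 1 point per treatment. NR1D1, NR1H2 and THRA have the most after ATRA+Corin, while PPARG, NR1H2 and NR3C1 show wide spacing between treatments.

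**Figure D4:**
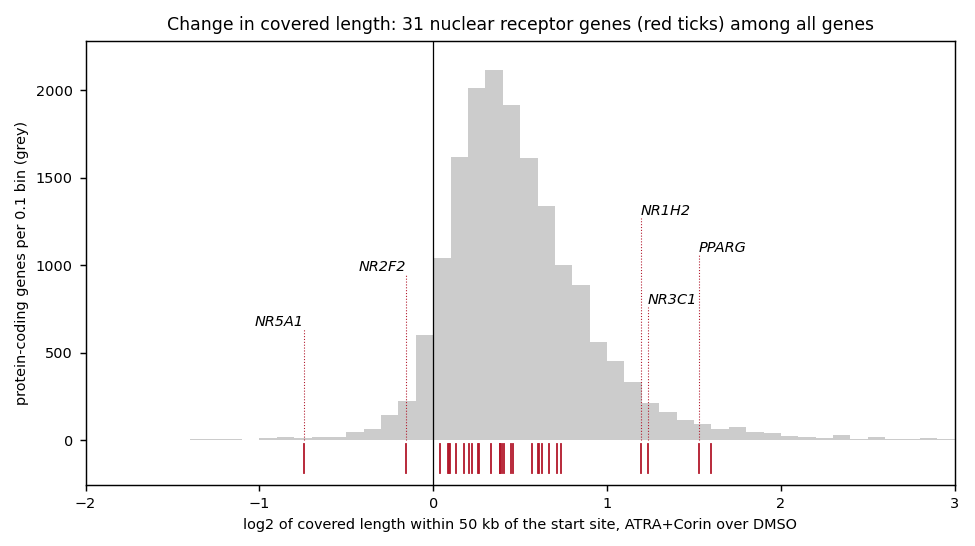
Distribution over all protein-coding genes (grey bars, y axis) of the log2 ratio of covered length within 50 kb, ATRA+Corin over DMSO (x axis), with red ticks for the 31 receptors that had DMSO cover. NR2E1, with 579 bp after DMSO, PPARG, NR3C1 and NR1H2 lie in the right tail at ratios of 3.03, 2.88, 2.35 and 2.29, and NR5A1 at 0.597 and NR2F2 at 0.896 lie below equal length.

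The receptors for fatty acids and oxysterols, PPARA, PPARD, PPARG, NR1H2 and NR1H3, had ratios to DMSO after ATRA+Corin that exceeded those of 69.5% (NR1H3) to 97.4% (PPARG) of all genes. All 5 had at least 1.5 times their DMSO length (33.6% of all genes), with a median ratio of 1.66, and 0 of 5 did after ATRA (5.92%) and 1 of 5 after Corin (16.6%). PPARG encodes the receptor that directs fat cell and alveolar macrophage programmes (chr3:12287368-12434356, plus strand, start at 12289070). Its window held 7180 bp after DMSO, 8525 bp after ATRA, 14789 bp after Corin and 20688 bp after ATRA+Corin, a ratio of 2.88 to DMSO, and 97.4% of all genes had a lower ratio. Its regions within 50 kb numbered 9, 6, 9 and 13 in the same order, and 4, 6, 7 and 7 where −log10 q was 5 or more. With the same number of peaks kept in each list they numbered 9, 6, 7 and 7, so the greater length did not go with more regions in every setting. Over the whole gene body the cover was 17320, 21949, 27020 and 34899 bp. In this gene the step with Corin was larger than the step with ATRA, and the combination had the most.

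NR1H2 had 16481 bp after DMSO, 20859 bp after ATRA, 23356 bp after Corin and 37747 bp after ATRA+Corin, a ratio of 2.29. Of the 14 regions in its locus, 3 had NR1H2 as the nearest start and 5 lay within 1 kb of another gene's start, so much of this length belongs to a dense neighbourhood. PPARD, the broadly expressed PPAR delta gene, had 17849, 20349, 23938 and 29289 bp, and NR1H3 had 14073, 17209, 17546 and 21708 bp. Of the 10 regions in the NR1H3 locus, 3 had its start as the nearest and 3 lay within 1 kb of another gene's start. For PPARA, PPARD and PPARG the gene's own start was the nearest for 8 of 9, 11 of 17 and 17 of 28 regions. PPARA had 5038, 7007, 6674 and 8374 bp. In each of these genes the ATRA+Corin list had the greatest length and DMSO the least.

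The thyroid hormone, vitamin D, bile acid and xenobiotic receptors come next. VDR encodes the receptor of active vitamin D (chr12:47841537-47943048, minus strand). Its window held 7876 bp after DMSO, 10314 bp after ATRA, 10417 bp after Corin and 11990 bp after ATRA+Corin, a ratio of 1.52, in 6, 6, 7 and 7 regions. The peak over its start was 5024, 5136, 5498 and 5757 bp wide. THRA, a thyroid hormone receptor gene, had 24649, 26431, 29455 and 30988 bp. THRA and NR1D1 lie on opposite strands with starts 37624 bp apart and shared 11 regions, so their values are not independent. NR1I3, a xenobiotic receptor of the liver, had no peak within 1 kb and none in its body, and the 11043 to 16377 bp in its window lay elsewhere, with 5 of 11 regions within 1 kb of another gene's start. NR1I2, another xenobiotic receptor, had 1951, 2586, 3133 and 2681 bp, with ratios to DMSO of 1.33, 1.61 and 1.37 where those of VDR were 1.31, 1.32 and 1.52. The bile acid receptor gene NR1H4 had 1 region, absent after DMSO, and THRB had 1 region of 197 bp after ATRA+Corin.

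The clock group holds the repressors NR1D1 and NR1D2 and the activators RORA and RORB, which act on the same elements. NR1D1 had the greatest covered length of the 39 genes. It was 33303 bp after DMSO, 36527 bp after ATRA, 39972 bp after Corin and 43384 bp after ATRA+Corin. Of the 17 regions in the NR1D1 locus, 4 had its start as the nearest and 5 lay within 1 kb of another gene's start. NR1D2 had 7730, 8570, 9592 and 10082 bp, and RORB 3509, 3215, 3626 and 4091 bp. RORA (chr15:60488284-61229302, minus strand) had nothing within 50 kb of its start in any list, despite a body of 741 kb. Its body held 0 DMSO regions, 1 ATRA region, 4 Corin regions and 6 ATRA+Corin regions, which covered 0, 198, 2450 and 3970 bp. The counts were 0, 0, 4 and 3 with −log10 q of at least 5 and 0, 1, 4 and 3 with the same number of peaks, so the combination did not hold more regions than Corin in these settings. These were weak to moderate peaks, with the highest −log10 q, 17.6, for the intronic region 313 kb from the start whose summit is printed above. Of the 8 RORA regions, 4 had a start of another gene as the nearest.

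Among the 3 steroid receptors with DMSO cover within 50 kb, NR3C1 had the highest ratio after ATRA+Corin. Its window held 6920 bp after DMSO, 8721 bp after ATRA, 12799 bp after Corin and 16295 bp after ATRA+Corin, a ratio of 2.35, and 94.8% of all genes had a lower one. Regions in the body numbered 5, 6, 6 and 12, against 4, 6, 4 and 6 with −log10 q of at least 5 and 5, 6, 5 and 7 with the same number of peaks. All 12 regions of the locus had NR3C1 as the nearest start. The largest region, 143395380 to 143406561, held the start and was covered over 4808 bp after DMSO, 5953 bp after ATRA, 9839 bp after Corin and 10780 bp after ATRA+Corin. The mineralocorticoid receptor gene NR3C2 had 1079, 1326, 1061 and 1147 bp, and ESR2 had 2896, 3023, 3349 and 3456 bp. ESR1, the oestrogen receptor alpha gene, had no peak at its canonical start. Its body of 473 kb held 2, 3, 4 and 7 regions that covered 493, 1661, 1383 and 2911 bp, a ratio of 5.90 after ATRA+Corin that rests on the small DMSO length. With −log10 q of at least 5 it held 0, 0, 2 and 1 regions, and with the same number of peaks 2, 3, 2 and 3. PGR, the progesterone receptor gene, had none.

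Of the oestrogen-related receptors, ESRRA had 24574, 25802, 27811 and 29476 bp, and 4 of its 18 regions lay within 1 kb of another gene's start. ESRRB and ESRRG had no DMSO peak, and small peaks of 176 to 812 bp in total in their bodies or windows in some drug lists.

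In the group of HNF4, testicular, COUP-TF and tailless receptors, the covered length moved in both directions. NR2C1, the testicular receptor 2 gene, had 5190 bp after DMSO, 5368 bp after ATRA, 8029 bp after Corin and 8239 bp after ATRA+Corin, so its 2 high values were those of the lists with Corin. NR2C2 had 4268, 4139, 4486 and 5658 bp. NR2F2 had 10984, 12360, 9992 and 9843 bp in its window, and 6758, 6009, 5095 and 4327 bp in its body. It was 1 of 2 receptors, with NR5A1, whose window held less after ATRA+Corin than after DMSO, against 7.39% of all genes. NR2F1, the COUP-TF paralogue of NR2F2, had 5671, 6629, 6105 and 6539 bp, and NR2F6 had 23091, 22215, 25533 and 24658 bp. Of the 12 regions in the NR2F6 locus, 2 had its start as the nearest and 5 lay within 1 kb of another gene's start. HNF4A, a regulator of liver and gut epithelium, had 6572, 7482, 6605 and 6962 bp with no peak within 1 kb of its start. NR2E1 and NR2E3, receptors of brain and retina, had at most 1756 bp, so the ratio of 3.03 for NR2E1 rests on 579 bp after DMSO.

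The immediate early genes NR4A1, NR4A2 and NR4A3 were covered at their starts in every list. NR4A1 had 17610 bp after DMSO, 21320 bp after ATRA, 19803 bp after Corin and 22938 bp after ATRA+Corin. NR4A2 had 7454, 8761, 8981 and 10184 bp. NR4A3 had 7770, 7801, 7965 and 7997 bp, a ratio of 1.03 after ATRA+Corin, and 9.19% of all genes had a lower one. The 3 paralogues thus shared cover at the start and differed in what surrounded it.

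Among the others, NR6A1 had 11115, 12572, 14280 and 16847 bp, NR5A2, a receptor of liver and pancreas, had 2026, 2163, 2059 and 2215 bp, and NR0B2, a receptor without a DNA-binding domain that represses others, had 10160, 10911, 11346 and 11473 bp. None of the 9 regions of NR0B2 had its start as the nearest. NR5A1, the steroidogenic factor gene, had 3469 bp after DMSO, 2513 bp after ATRA, 2102 bp after Corin and 2072 bp after ATRA+Corin.

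**Figure D5:**
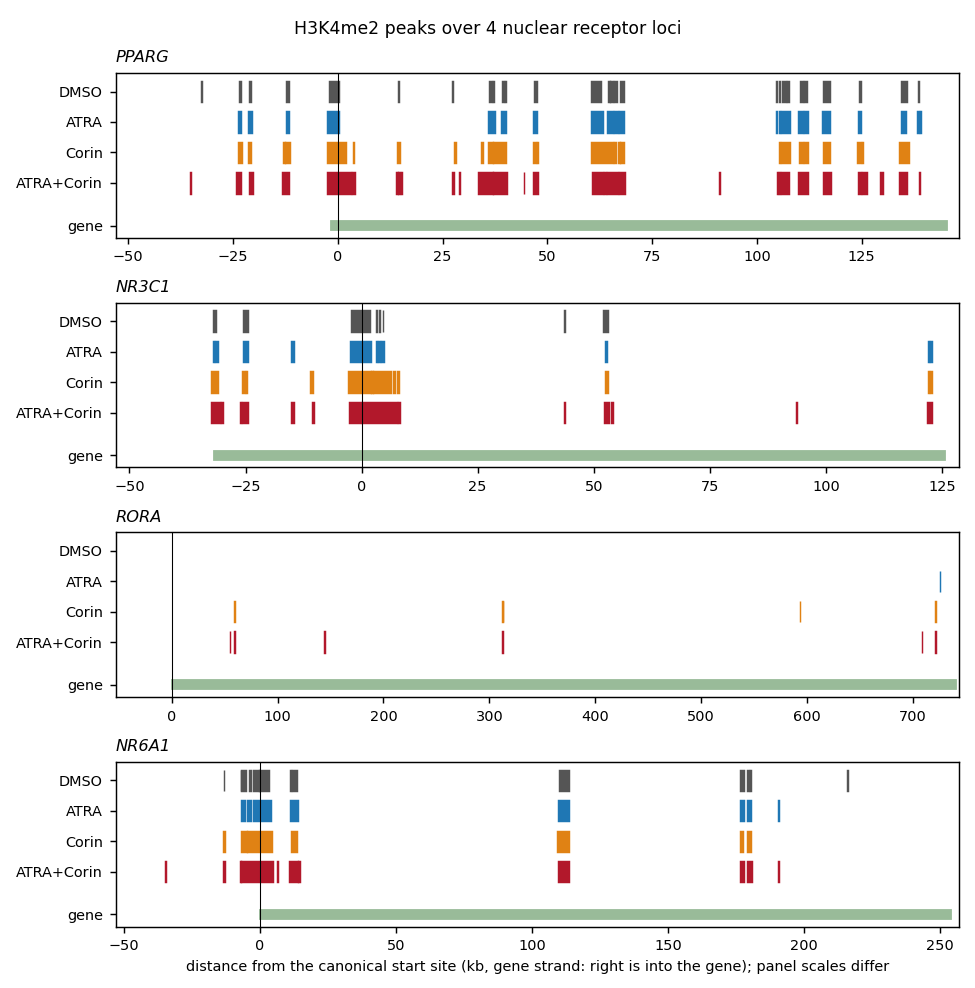
H3K4me2 peaks (coloured boxes, 1 row per treatment) over the PPARG, NR3C1, RORA and NR6A1 loci, with distance from the canonical start in kb on the x axis and the gene as a green bar. Panel scales differ. PPARG and NR3C1 have more marked length after ATRA+Corin than after DMSO, RORA has none after DMSO, and the NR6A1 start lies in 1 broad peak after ATRA+Corin.

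The third question was which marked regions appeared or disappeared. Overlapping or touching peaks, from any list, formed 84577 regions, and such a region counted as gained when it held a peak of the treated list and none of the reference list. The 39 loci, taken as the gene body and 50 kb on either side of the start, held 286 regions, of which 21 lay over the member's start, 21 over another part of an exon, 124 in the rest of the body and 120 outside the gene. All 4 lists held 150 of them (52.4%, against 51.2% of all regions), and 46 were in the ATRA+Corin list alone (16.1%, against 16.3%). None of the gained or lost regions lay over a member's start. The changes in start-site cover above were thus changes inside regions present throughout.

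Within 50 kb of the starts, ATRA gained 21 and lost 18 regions against DMSO, Corin gained 28 and lost 18, and ATRA+Corin gained 56 and lost 13. With the same number of peaks kept in each list, ATRA gained 19 and lost 20, Corin gained 16 and lost 21, and ATRA+Corin gained 30 and lost 22, so the excess of gains turned into an excess of losses for both single drugs. With −log10 q of at least 5 the lost regions numbered 4, 4 and 3. Within 50 kb of all protein-coding starts, ATRA gained 5740 and lost 2665 regions against DMSO in the full lists. These numbers were 9307 and 2757 after Corin, and 17361 and 2032 after ATRA+Corin. Gains thus outnumbered losses by a larger factor around all genes than around the receptors. At least 1 gained region was found for 15 of the 39 genes after ATRA (37.6% of all genes), 22 after Corin (50.1%) and 24 after ATRA+Corin (64.0%). At least 1 lost region was found for 14 (21.9%), 13 (22.3%) and 11 (17.5%). The combination had 51 regions that ATRA lacked and lacked 11 that ATRA had. Compared with Corin these numbers were 45 and 12. A region gained against ATRA was found for 21 genes (59.3%) and against Corin for 19 (54.9%). The counts of receptors with a gained region lay on either side of the background, and those with a lost region lay above it in the full lists. This share of genes was not recomputed for the stricter lists, where few lost regions were left. In the gene bodies, ATRA gained 20 and lost 12, Corin gained 30 and lost 15, and ATRA+Corin gained 50 and lost 11. In the bodies of all protein-coding genes these numbers were 5433 and 2583, 8256 and 2782, and 15529 and 2086. The fatty acid and oxysterol group held 19 of the 56 regions gained within 50 kb after ATRA+Corin in the full lists. All 5 of its genes had at least 1 gained region, against 64.0% of all genes. The loci of this group held many regions from any list, 28 for PPARG, 17 for PPARD, 14 for NR1H2, 10 for NR1H3 and 9 for PPARA. Its count was not recomputed with the same number of peaks, where the gains of all receptors fell to 30.

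The gained regions with the highest −log10 q, a value of the authors' caller used here within a list, lay at 6 genes. In PPARD an intronic region 5.88 kb past the start (chr6:35347518-35349360) had a −log10 q of 50.0 after Corin and 92.7 after ATRA+Corin, and was absent after DMSO and ATRA. It covered 1687 and 1820 bp in the 2 lists. A region 22.5 kb upstream of NR2C1 (chr12:95095340-95096800, inside FGD6) had values of 31.1, 10.4 and 41.0 in the ATRA, Corin and ATRA+Corin lists. Its summit lies over sequence that is repeated in the genome, with 0 of 10 words of 20 bases occurring once, and the part of read placement in this region was not tested. A region 23.6 kb upstream of NR4A2 (chr2:156355704-156357002) had 12.7, 15.9 and 2.67 in that order. In NR1D2 an intronic region 5.08 kb past the start (chr3:23949857-23950872) had 10.7, 7.57 and 22.9. These 3 regions were in every drug list and absent after DMSO, a pattern of 12 of the 286 regions (against 4.90% of all regions).

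In NR3C1 a region 14.9 kb upstream of the canonical start, but inside the annotated gene (chr5:143418216-143418960), had 11.1 after ATRA and 15.4 after ATRA+Corin, and was absent after DMSO and Corin. A region in NR1H2 that also lay over the start of NAPSA (chr19:50363606-50365987) had 3.01, 18.5 and 13.7 in the ATRA, Corin and ATRA+Corin lists. The lost regions were weaker. The highest −log10 q in the DMSO list was 9.15, in PPARD 43.5 kb past the start (chr6:35385665-35386533), which was lost after Corin but present after ATRA at 66.5 and after ATRA+Corin at 12.6. A PPARD region of 222 bp (chr6:35363535-35363756, −log10 q of 6.65) was in the DMSO list alone. The other lost regions of this ranking had values of 5.02 to 7.83 and lay at NR0B2, ESRRA, NR5A1, PPARG, PPARA and NR2C2. PPARD thus held the highest-ranked gained region after Corin and after ATRA+Corin and also the highest-ranked lost regions.

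Region summits were searched for AGGTCA on both strands in windows of 300 bases. It was found in 63 of the 286 regions near receptor genes (22.0%), against 22.2% of all regions. Among regions gained after ATRA+Corin it was found in 24 of 80 (30.0%), against 24.1% of all gained regions. A match of letters is not evidence of a bound factor.

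Genes that work with the receptors were measured in the same way. Of 12 coregulator genes, the start was covered in 7 in the DMSO list (47.3% of all genes) and in 9 with ATRA (48.1%). It was covered in 5 with Corin and in 5 with ATRA+Corin (38.0% of all genes in both lists). Their covered length within 50 kb was 1.22, 1.41 and 1.58 times that of DMSO at the median after ATRA, Corin and ATRA+Corin, in 11 genes with DMSO cover, against 1.09, 1.22 and 1.34 for all genes. After ATRA+Corin 9 of the 12 had a gained region and 1 had a lost region, against 64.0% and 17.5% of all genes. NCOA3, a coactivator with histone acetyltransferase partners, had 6503 bp after DMSO, 12073 bp after ATRA, 9790 bp after Corin and 18324 bp after ATRA+Corin, and its regions numbered 4, 8, 7 and 18. TBL1XR1, a subunit of the NCOR corepressor complexes, had 4603, 5720, 8293 and 13593 bp in 2, 4, 5 and 9 regions. NCOR1, a corepressor of unliganded receptors, had a covered start after ATRA alone. NRIP1 had no region within 50 kb in any list.

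Of 20 known target genes of these receptors, the start was covered in 14 with ATRA (48.1% of all genes). It was covered in 13 in each other list, against 47.3% with DMSO and 38.0% with Corin and with ATRA+Corin. All 20 had at least 1 region gained within 50 kb in the combination list (64.0% of all genes), 16 with ATRA (37.6%) and 12 with Corin (50.1%). These counts too are from the full lists and were not recomputed with the same number of peaks. The median length ratio to DMSO was 1.16 with ATRA, 1.24 with Corin and 1.57 with both, against 1.09, 1.22 and 1.34 for all genes. CD36, a scavenger receptor regulated by PPARG, had 6122 bp after DMSO, 9803 bp after ATRA, 12286 bp after Corin and 16939 bp after ATRA+Corin. PLIN2, a lipid droplet protein gene, had 9510, 14120, 15495 and 21647 bp. THBD, which encodes thrombomodulin, had 16158, 22703, 19716 and 32282 bp. FABP4, a fatty acid binding protein gene, had 210, 1210, 1405 and 2309 bp, so its ratio rests on 1 small DMSO region. CYP24A1, the vitamin D catabolic enzyme gene, and CPT1A, of mitochondrial fatty acid import, had ratios of 1.15 and 0.973 after ATRA+Corin. The named coregulators and targets were chosen after their values were seen.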

How the data were processed

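Per the submitters' processing notes, reads were handled with Trimmomatic, Bowtie2, Picard and MACS2 on hg38; versions and thresholds are not given in the sources used here. The authors deposited 1 peak list per treatment, labelled as an optimal reproducibility overlap set. How the libraries were combined is not given in the sources used here. Each deposited peak has a position, a fold enrichment over input (a ratio), −log10 p, −log10 q and a score. The score was not used, and −log10 p served only to order peaks when the same number was kept in each list. Library depth is not given by peak lists. Start sites were the canonical ones of GENCODE release 44, on 23 chromosomes. Overlapping or touching peaks were merged across the lists. The windows were tested on simulated peaks, with Python 3.11.15 and numpy 2.4.6. Named genes were the receptors whose start cover differed, the 6 with most gained and lost regions after ATRA+Corin, and VDR, PPARG, NR1H3, NR3C1, RORA and NR4A1 to NR4A3. Named regions were the 3 gained and 3 lost per contrast with DMSO with the highest −log10 q. The members, gene lists and these rules were chosen with earlier results of these data known. The choices varied were a deposited −log10 q of 5 or more, 65172 peaks in each list, a peak within 1 kb or any basic transcript's start, windows of 10 and 100 kb, and peaks within 1 kb merged. Some items are not reported here.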

Additional observations from a re-analysis of the deposited data

How the results depend on the processing

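No paired analysis was possible because each treatment has 1 pooled list with no columns per library, and for the same reason no replicate could be left out. The counts of covered starts stayed within 1.5 times of those reported under every alternative run. With a peak within 1 kb in place of the start base, 0 receptors gained or lost a start in any contrast. In the counts that follow, the contrasts are ATRA, Corin and ATRA+Corin against DMSO, then ATRA+Corin against ATRA and against Corin, and the cause of each shift was not tested beyond what the setting itself changes. With −log10 q of at least 5, regions lost within 50 kb were 4, 4 and 3 against DMSO and 6 against Corin, and regions gained were 33, 22 and 19 for ATRA+Corin against DMSO, ATRA and Corin. In bodies, losses were 5, 7 and 5 against DMSO and 7 against Corin, and gains were 19 for Corin and 27, 20 and 17 for ATRA+Corin. With the same number of peaks, gains within 50 kb were 16 for Corin and 30, 23 and 23 for ATRA+Corin, with 22 lost against DMSO. In bodies, gains were 19 for Corin and 26, 20 and 20 for ATRA+Corin, with 19 lost against DMSO and 20 against ATRA. In windows of 10 kb, gains were 3, 6, 15, 15 and 13 and losses 3, 3, 1, 1 and 2. In windows of 100 kb, gains were 34, 56, 99, 87 and 71, with 20 lost for ATRA+Corin against DMSO and 26 against Corin. With peaks within 1 kb merged, gains within 50 kb were 13, 17, 30, 28 and 23, and in bodies 19, 29, 26 and 21 for the last 4 contrasts, with 9, 6 and 8 lost for Corin and ATRA+Corin against DMSO and for ATRA+Corin against Corin. With the same number of peaks the combination thus lost more regions than in the full lists, while its gains against DMSO still outnumbered its losses. For ATRA and Corin the losses within 50 kb, 20 and 21, then outnumbered the gains, 19 and 16. Covered length near named genes changed direction in 2 cases: NR2C2 after ATRA, from 0.970 to 1.22 times DMSO with −log10 q of at least 5, and NR4A3 after ATRA+Corin, from 1.03 to 0.960 with the same number of peaks. In 44 of 45 named ratios under each of these 2 settings, which were added after the data were seen, the direction was the same. Peak lists carry no library totals, so it cannot be said which absent peaks fell just under the caller's threshold. Nor can it be said which were left out when the libraries were combined.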

Other observations

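Cover over all annotated starts differed from that of the canonical start for several receptors. Among basic GENCODE transcripts with different start sites, PPARG had 12 of 15 under a peak in every list. NR1H2 had 2 of 6 covered after DMSO and 6 of 6 after ATRA, Corin and ATRA+Corin. NR3C1 had 6 of 8 covered in the DMSO and ATRA+Corin lists, 7 with ATRA and 8 with Corin. NR2F2 had 4 of 4 in the DMSO list, 3 with ATRA or Corin and 1 with both. NR1H3 had 7 of 8 after DMSO and ATRA, 4 after Corin and 5 after ATRA+Corin. ESR2, whose canonical start was never under a peak, had 2 of its 6 starts covered in every list, and NR1I2 had 1 of 3 covered in every list but Corin.

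In the NR3C1 locus a region that began at 143280842 near the end of the gene was absent after DMSO and covered 659, 699 and 1014 bp in the drug lists.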
